A study of Mus musculus with 6 samples.

Results

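The 9 genes described here encode transcription factors that maintain the identity of hepatocytes and that are not nuclear receptors. They comprise the FOXA genes *Foxa1*, *Foxa2* and *Foxa3*, the C/EBP genes *Cebpa* and *Cebpb*, the ONECUT genes *Onecut1* and *Onecut2*, the homeobox gene *Prox1*, and *Creb3l3*, which encodes CREBH. They were chosen by function and taken by symbol from the deposited gene table of the series, in which each symbol has 1 row, and they are 9 of the 25403 genes listed. Poly(A) RNA from frozen liver was sequenced for 3 mice labelled WT (wild-type C57BL6/J) and 3 mice labelled *Themis*-KO, in which the gene for the T cell signaling protein THEMIS was inactivated in the whole body. Mice of both genotypes received a diet that induces metabolic dysfunction–associated steatohepatitis (MASH), in which fat gave 40% and fructose 20% of the energy and cholesterol made up 2%, from an age of 10 to 12 weeks and over 3 months, and no liver of mice on another diet is part of the series. Because the knockout is not limited to a cell type, hepatocytes, T cells and all other liver cells of these mice carry it. The question was whether loss of *Themis* changed liver gene expression during MASH, and here it was put to the factors that maintain the hepatocyte program.

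FOXA proteins are pioneer factors that open chromatin at liver enhancers, where hepatocyte nuclear factors and C/EBP proteins then bind. C/EBPα is the main C/EBP factor of quiescent, metabolically active hepatocytes, whereas C/EBPβ is raised by cytokines, during regeneration and in stress. HNF6, the product of *Onecut1*, and its relative OC-2, the product of *Onecut2*, act in biliary and hepatocyte development, PROX1 is needed for hepatoblast migration and represses bile acid synthesis, and CREBH is a membrane-bound factor of the endoplasmic reticulum that is cleaved on fasting or stress and activates genes of lipid and apolipoprotein metabolism.

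Total gene counts ran from 20679642 to 25649767 per library, and every pair of them differed by more than counting error. Levels are given as CPM, counts normalized by TMM to a common library size, always in the order of replicates 1, 2 and 3. *Themis* itself was at 8.07, 25.6 and 12.0 CPM in the livers labelled WT and at 8.63, 7.74 and 9.97 CPM in those labelled *Themis*-KO, with an adjusted p of 0.199 by edgeR's quasi-likelihood test. Its counts did not separate the genotypes, so the groups are named by their labels. WT replicates 1 and 2 stood apart in mitochondrial reads, with the nuclear copy *Gm28438* taking 96.6% and 96.8% of the summed reads of *Gm28438* and *mt-Nd3*, against 2.2% to 3.26% in the others. This split, called the mitochondrial type, partly coincides with the labels. The labels give no sequencing batch and no sex, and the study's text describes the mice of this cohort as male. The livers expressed hepatocyte markers at high levels, with *Alb* at 33600 CPM or more in each.

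The positions of the genes are those of GENCODE vM21 on GRCm38. *Cebpa* lies on chromosome 7 (35119293 to 35121928) and *Cebpb* on chromosome 2 (167688915 to 167690418), both on the forward strand, and each is a single exon. *Foxa2* lies on the reverse strand of chromosome 2 (148042877 to 148046969), *Foxa1* on the reverse strand of chromosome 12 (57540628 to 57546916), and *Foxa3* on the reverse strand of chromosome 7 (19013284 to 19023538). *Onecut1* lies on the forward strand of chromosome 9 (74861921 to 74891781), *Prox1* on the reverse strand of chromosome 1 (190118035 to 190170714), and *Creb3l3* on the reverse strand of chromosome 10 (81084324 to 81098874). The sources used here do not say whether reads were counted by strand. *Cebpb* shares 312 exon bases with *Tmem189* on the opposite strand, which had 44.3 to 51.8 CPM, and *Onecut1* shares 2171 exon bases with the lincRNA gene *Gm20649* on its own strand, which had at most 2.21 CPM. Antisense genes that share exon bases with *Cebpa* (*Gm45091*, at most 0.355 CPM) and *Prox1* (*Prox1os*, 1.02 to 2.37 CPM) were low. Reads in the shared bases cannot be assigned to 1 gene with certainty.

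Promoter sequence was examined because FOXA, C/EBP, ONECUT and CREBH factors are known to act on one another's genes. RefSeq windows of 300 bases, 250 before and 50 after a transcription start, were at hand for 8 of the 9 genes and 12 starts in all, and no window of *Onecut2* was used. The letters searched on both strands were TGTTTAC or TATTTAC for FOXA, TTGCNNAA for C/EBP, ATTGAT or ATTGAC for HNF6, TGACGT for the cyclic AMP response element (CRE) that CREB-type factors bind, and CAAAGTCCA for HNF4. None of these motifs overlaps another in the windows described. The 250 bases before the start are shown for the factors on which the comparisons below turn, *Cebpa*, *Cebpb*, *Onecut1* and *Foxa2*, 5′ to 3′ on the strand of the gene, with motif matches in capitals (GRCm38.p6, chr7:35119043-35119292 forward, chr2:167688665-167688914 forward, chr9:74861671-74861920 forward and chr2:148046970-148047219 reverse).
Cebpa: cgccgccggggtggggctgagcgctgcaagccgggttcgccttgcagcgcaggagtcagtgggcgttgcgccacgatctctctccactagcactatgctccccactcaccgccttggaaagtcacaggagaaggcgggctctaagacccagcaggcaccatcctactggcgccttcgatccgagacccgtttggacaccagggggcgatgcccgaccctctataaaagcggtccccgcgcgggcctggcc
Cebpb: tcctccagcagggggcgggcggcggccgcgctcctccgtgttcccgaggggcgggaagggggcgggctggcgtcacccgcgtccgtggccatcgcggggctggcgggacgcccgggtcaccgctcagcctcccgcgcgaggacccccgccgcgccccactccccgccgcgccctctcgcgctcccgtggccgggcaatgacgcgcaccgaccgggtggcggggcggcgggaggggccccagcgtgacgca
Onecut1: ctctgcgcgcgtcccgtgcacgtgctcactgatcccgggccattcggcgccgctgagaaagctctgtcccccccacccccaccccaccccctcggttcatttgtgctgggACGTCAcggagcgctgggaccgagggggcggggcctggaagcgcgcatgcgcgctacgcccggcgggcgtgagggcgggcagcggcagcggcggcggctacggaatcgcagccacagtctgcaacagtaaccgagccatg
Foxa2: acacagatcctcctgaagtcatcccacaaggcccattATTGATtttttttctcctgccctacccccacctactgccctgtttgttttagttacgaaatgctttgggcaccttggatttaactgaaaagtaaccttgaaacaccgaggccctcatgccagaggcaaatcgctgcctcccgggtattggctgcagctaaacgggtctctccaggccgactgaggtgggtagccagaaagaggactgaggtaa
In *Onecut1* the capitals mark a CRE match on the opposite strand that begins 140 bases before the start, and in *Foxa2* an HNF6 match on the strand of the gene that begins 213 bases before it. The *Cebpa* and *Cebpb* windows held none of the letters, and G and C made up 66.4% and 81.6% of these bases. Among the windows not shown, that of *Foxa1* held a FOXA match on the opposite strand and another start of *Foxa2* an HNF6 match. Of the 12 windows, 2 thus held the HNF6 letters, 1 the FOXA letters, 1 the CRE letters and 0 the C/EBP or HNF4 letters. Among all 32851 RefSeq windows of this length the shares with a match were 13.1% for HNF6, 6.55% for FOXA, 7.51% for CRE, 10.8% for C/EBP and 0.475% for HNF4. A match to these letters is not evidence of binding.

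No member passed the test between the labels. All 9 passed the filter on low counts, with 284 to 11409 counts per liver, and 0 were called lower and 0 higher at an adjusted p under 0.05 by edgeR's quasi-likelihood test, in a comparison in which 9.11% of the 14496 genes tested were called. At an unadjusted p under 0.05 there were 5 members (*Foxa3*, *Cebpa*, *Cebpb*, *Onecut1* and *Creb3l3*), or 55.6%, beside 30.7% of all genes. The groups did not overlap in CPM for 4 members (*Cebpa*, *Cebpb*, *Onecut2* and *Creb3l3*), or 44.4%, beside 34.6% of all genes. DESeq2 called 2 members, *Cebpa* lower and *Cebpb* higher, where it called 15.1% of genes. The log2 fold change of *Themis*-KO over WT was below 0 for 7 members and above 0 for *Foxa3* and *Cebpb*, with a median of −0.21 against 0.0095 over all genes tested. With scaling by total counts alone, the median of all genes moved to 0.15, and *Foxa1* then lay above 0 with 0.0087.

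**Figure D1:**
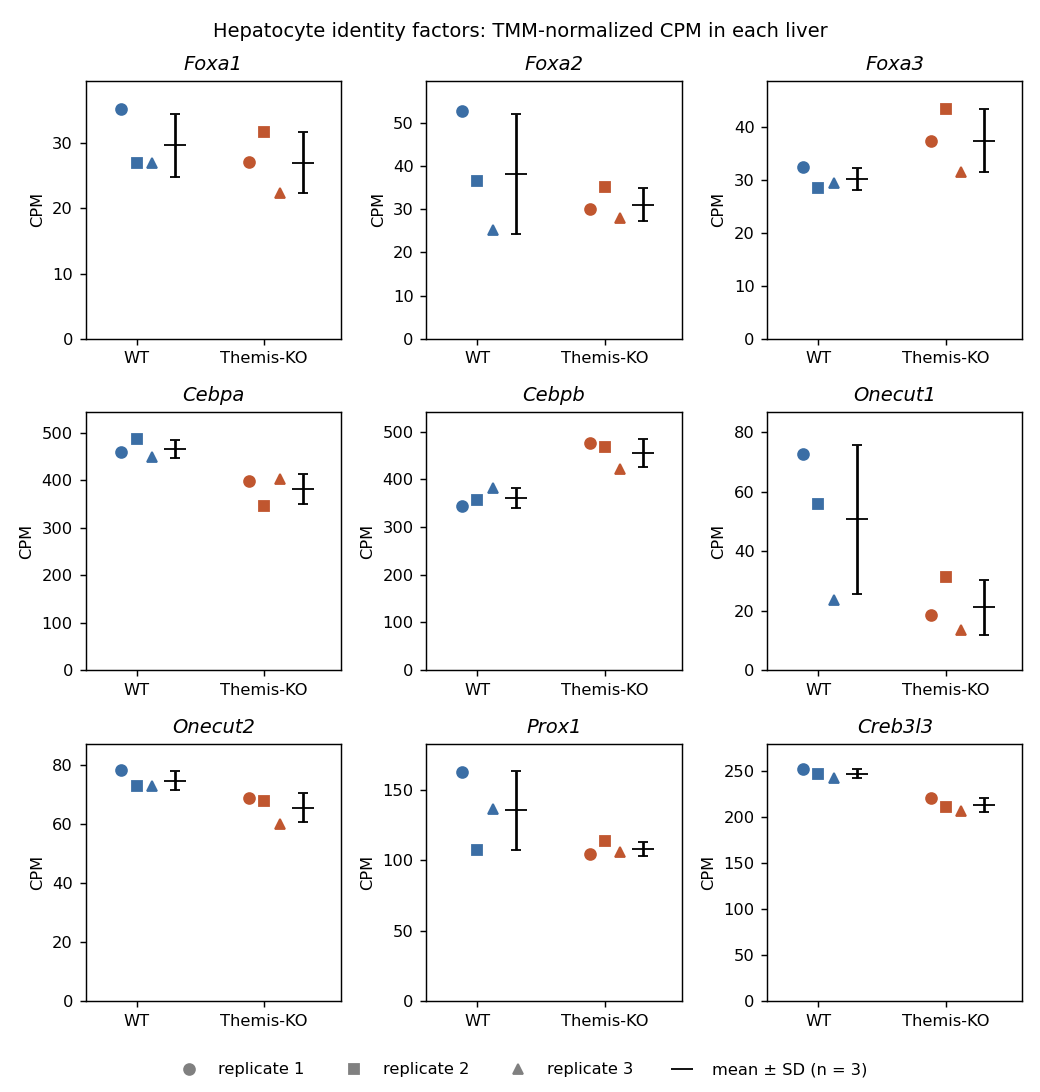
TMM-normalized CPM of the 9 factors in each liver, with 1 panel per gene, WT in blue and *Themis*-KO in orange, the marker shape giving the replicate number, and a dash and bar for the mean ± SD of 3 livers. The groups separate in *Cebpa*, *Cebpb*, *Onecut2* and *Creb3l3*, and *Onecut1* spans 13.4 to 72.8 CPM.

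The C/EBP pair lay apart between the labels without overlap, in opposite directions. *Cebpa* (ENSMUSG00000034957) was at 459, 487 and 450 CPM in the WT livers and at 398, 346 and 403 CPM in the *Themis*-KO livers. *Cebpb* (ENSMUSG00000056501) was at 343, 357 and 383 CPM in the WT livers and at 476, 467 and 421 CPM in the *Themis*-KO livers. Every liver labelled *Themis*-KO thus had less *Cebpa* and more *Cebpb* than every liver labelled WT, with *Themis*-KO replicate 3 the closest of its group to WT in both. The mean CPM of *Cebpa* was 466 ± 19.2 in WT and 382 ± 31.8 in *Themis*-KO (SD, n = 3), or −0.28 on the log2 scale (SE 0.095, adjusted p = 0.0931), with a 95% interval from 0.706-fold to 0.957-fold. For *Cebpb* it was 361 ± 20.1 and 455 ± 29.4, or 0.33 on the log2 scale (SE 0.092, adjusted p = 0.0599), with an interval from 1.09-fold to 1.46-fold. Neither passed the threshold in this fit, and both calls depended on the setting. DESeq2 gave adjusted p-values of 0.0410 for *Cebpa* and 0.0208 for *Cebpb*, and without *Themis*-KO replicate 3, where 28.8% of all genes were called, edgeR gave 0.0437 and 0.0240. Scaled by total counts alone, *Cebpb* passed with a log2 fold change of 0.47 (adjusted p = 0.0317), while *Cebpa* was at −0.15 (adjusted p = 0.255). With the mitochondrial type as a covariate, both kept their sign, with −0.24 for *Cebpa* and 0.25 for *Cebpb*. In this fit WT replicate 3 is the only WT liver of its type.

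**Figure D2:**
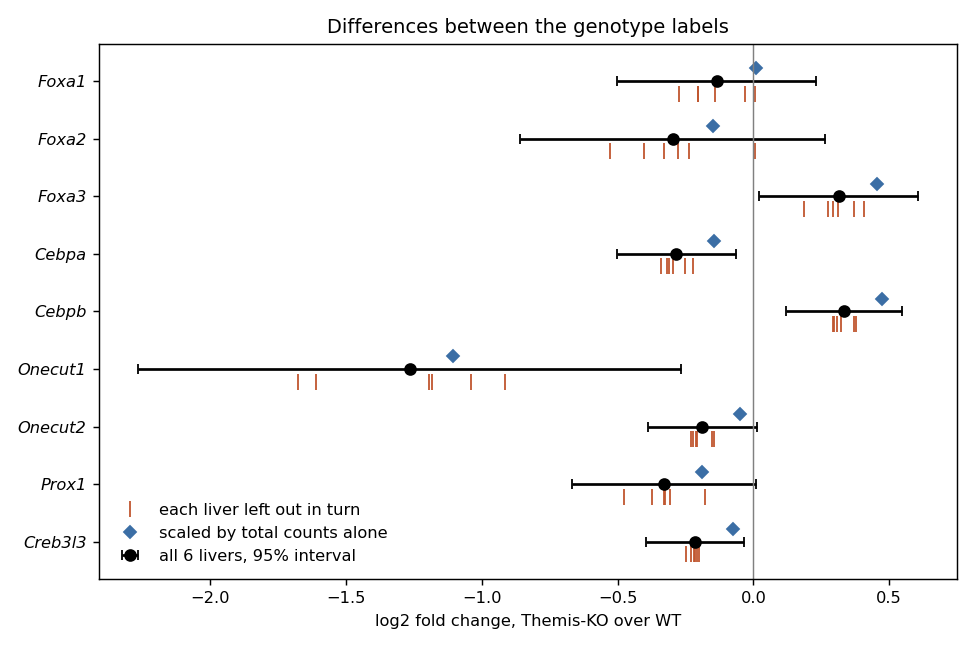
Log2 fold change of each factor, *Themis*-KO over WT. Black points and bars give the value over 6 livers with its 95% interval, orange ticks the values with each liver left out, and blue diamonds scaling by total counts alone. *Onecut1* has the widest interval. *Foxa1* and *Foxa2* cross 0 without WT replicate 1, and *Foxa1* also with total counts alone.

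The ratio of *Cebpb* to *Cebpa* counts, taken within a liver so that library scaling drops out, was 0.747, 0.732 and 0.850 in the WT livers. In the *Themis*-KO livers it was 1.20, 1.35 and 1.05. All 3 WT livers therefore had fewer *Cebpb* than *Cebpa* counts and all 3 *Themis*-KO livers had more. The groups did not overlap, which follows from the opposite separation of the 2 genes and is, like the p-value below, no further result. The mean log2 ratio was −0.37 ± 0.12 in WT and 0.25 ± 0.18 in *Themis*-KO (SD, n = 3), a difference of 0.62 or 1.54-fold (p = 0.1 by an exact two-sided permutation test, which cannot go lower with 3 livers against 3). Without each liver in turn the difference was between 0.53 and 0.71. In bulk liver, fewer hepatocytes and less RNA per hepatocyte cannot be told apart, and C/EBPβ is also made by macrophages. Of 10 macrophage markers, 3 (*Gpnmb*, *Trem2* and *Cd68*) rose and 0 fell, or 30.0% called beside 9.11% of all genes. The number called was 0 without WT replicate 1, WT replicate 2 or *Themis*-KO replicate 1 and 7 without WT replicate 3. The log2 fold change was above 0 for 9 of the 10 and below 0 for *Timd4* (−0.63). It was small for *Clec4f* (0.14) and *Vsig4* (0.22). The summed level of the 10 was 273 to 447 CPM in WT and 465 to 588 CPM in *Themis*-KO. Of the neutrophil markers 0 of 3 tested passed by edgeR (3 at an unadjusted p under 0.05, and 0 by DESeq2), but 3 were called without *Themis*-KO replicate 3. The sum of the list was at most 10.7 CPM in any liver, and *Mpo* had 3 counts or fewer in each. The part of macrophages and neutrophils in the *Cebpb* level was not tested.

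**Figure D3:**
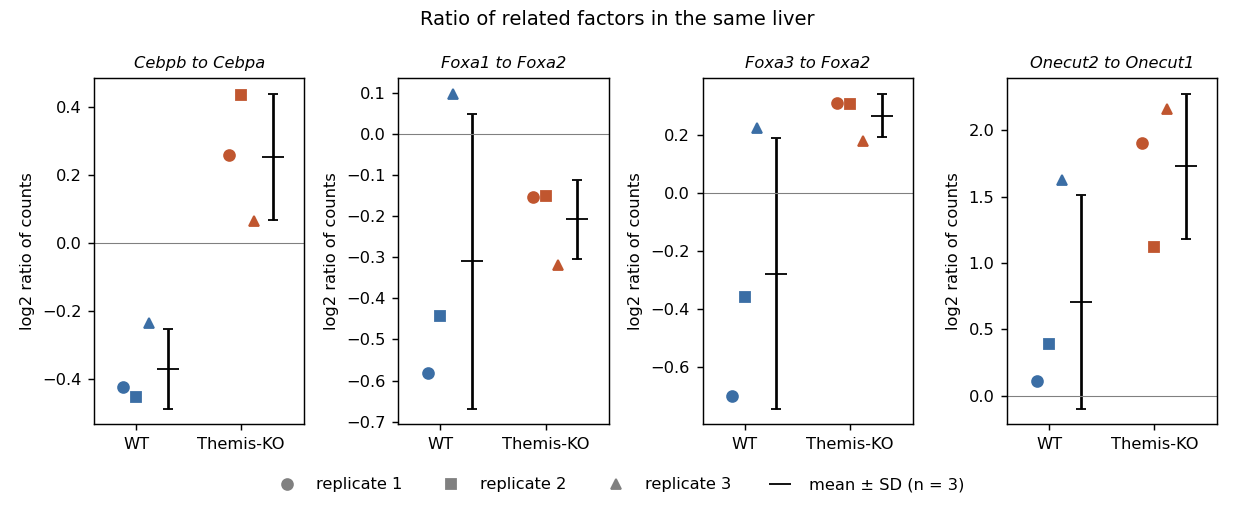
Log2 ratio of the counts of 2 related factors in the same liver for 4 pairs, with marker shapes for replicates and a dash and bar for the mean ± SD of 3 livers. The *Cebpb* to *Cebpa* ratio lies below 0 in each WT liver and above 0 in each *Themis*-KO liver, and the groups overlap in the other 3 pairs.

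Among the FOXA genes, the log2 fold change was above 0 for *Foxa3* and below 0 for *Foxa1* and *Foxa2*, the last 2 of which turned above 0 under settings given below. *Foxa3* (ENSMUSG00000040891), which supports glucose and lipid gene expression in adult liver, was at 32.6, 28.6 and 29.4 CPM in the WT livers and at 37.4, 43.6 and 31.6 CPM in the *Themis*-KO livers. The groups overlapped through *Themis*-KO replicate 3, which lay below WT replicate 1. Its log2 fold change of 0.31 (SE 0.13) missed the threshold (adjusted p = 0.143), and it was 0.41 without *Themis*-KO replicate 3 (adjusted p = 0.0208) but 0.19 without *Themis*-KO replicate 2 (adjusted p = 0.407). *Foxa1* (ENSMUSG00000035451) was at 35.3, 26.9 and 26.9 CPM in WT and at 27.1, 31.7 and 22.3 CPM in *Themis*-KO. *Foxa2* (ENSMUSG00000037025), a regulator of bile acid and fasting metabolism, was at 52.8, 36.6 and 25.2 CPM in WT and at 30.1, 35.2 and 27.9 CPM in *Themis*-KO. In both genes WT replicate 1 was the highest of the 6 livers. The other WT livers lay within the *Themis*-KO range for *Foxa1* and just above or below it for *Foxa2*. The log2 fold change of *Foxa1* was −0.14 (SE 0.16, adjusted p = 0.589), and it crossed 0 with total counts alone (0.0087) and without WT replicate 1 (0.0043). That of *Foxa2* was −0.30 (SE 0.24, adjusted p = 0.431), and it was 0.0078 without WT replicate 1, −0.53 without WT replicate 3 and −0.15 with total counts alone. With the mitochondrial type as a covariate *Foxa1* was at 0.0064, *Foxa2* at 0.30 and *Foxa3* at 0.35, none of them past the threshold. Relative to *Foxa2* in the same liver, the log2 ratio of *Foxa3* differed by 0.54 (exact two-sided permutation test, p = 0.2) and that of *Foxa1* by 0.10 (p = 0.6, same exact test), with overlapping groups in both.

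The ONECUT genes differed in how much they varied. *Onecut1* (ENSMUSG00000043013) was at 72.8, 55.8 and 23.6 CPM in the WT livers and at 18.4, 31.3 and 13.4 CPM in the *Themis*-KO livers. The highest WT liver was 3.08 times the lowest, and WT replicate 3 lay inside the *Themis*-KO range. It had the largest estimate of the 9 factors and the least precise, at −1.27 on the log2 scale (SE 0.43, adjusted p = 0.0967) with a 95% interval from 0.208-fold to 0.832-fold. It passed without WT replicate 3 (log2 fold change −1.61, adjusted p = 0.0426) and without a filter on low counts (adjusted p = 0.0151). The high *Onecut1* livers were WT replicates 1 and 2, which share the mitochondrial type, and with that type as a covariate the log2 fold change was −0.16 (adjusted p = 0.904), a fit in which WT replicate 3 is the only WT liver of its type. *Onecut2* (ENSMUSG00000045991) was at 78.6, 73.0 and 72.9 CPM in WT and at 68.9, 68.0 and 60.1 CPM in *Themis*-KO. These groups did not overlap, but the difference was small, at −0.19 on the log2 scale (SE 0.087, adjusted p = 0.182) and −0.048 with total counts alone. The coefficient of variation over the WT livers was 49.2% for *Onecut1* and 4.34% for *Onecut2*. The count ratio of *Onecut2* to *Onecut1* was 1.08, 1.31 and 3.09 in WT and 3.75, 2.17 and 4.48 in *Themis*-KO, and the mean log2 ratio differed by 1.02 with overlapping groups (exact two-sided permutation test, p = 0.2).

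ONECUT and FOXA factors are also present in bile duct cells. Of 9 cholangiocyte markers tested, *Spp1* and *Cldn7* rose and 0 fell, or 22.2% called beside 9.11% of all genes. However, 0 were called without WT replicate 1 or WT replicate 2 and 4 without *Themis*-KO replicate 3. The summed level of the list was 170 to 210 CPM in WT and 402 to 635 CPM in *Themis*-KO, most of it *Spp1*, which macrophages also express. The keratins *Krt7* and *Krt19* had at most 4.63 CPM. The part of bile duct cells in the levels of the FOXA and ONECUT factors was not tested.

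*Prox1* (ENSMUSG00000010175) was at 163, 107 and 136 CPM in the WT livers and at 104, 113 and 106 CPM in the *Themis*-KO livers. The *Themis*-KO livers lay close together, while WT replicates 1 and 3 were higher and WT replicate 2 fell within the *Themis*-KO range. The difference was −0.33 on the log2 scale (SE 0.15, adjusted p = 0.171), from −0.48 without WT replicate 2 to −0.18 without WT replicate 1, and −0.19 with total counts alone. PROX1 also marks lymphatic endothelium. Of 5 lymphatic markers tested *Lyve1*, which sinusoidal endothelium also expresses, rose, or 20.0% called beside 9.11% of all genes. This call was lost when replicate 1 or 2 of either label was left out, and the others did not pass. The sums of the list were 88.0 to 93.9 CPM in WT and 105 to 122 CPM in *Themis*-KO. Of 8 endothelial markers 0 passed by edgeR (2 at an unadjusted p under 0.05, and 0 by DESeq2). *Reln*, which is also in the list of stellate cell markers, made up a mean of 51.9 CPM of the lymphatic sum in WT and 53.85 CPM in *Themis*-KO. *Mmrn1*, a lymphatic marker, had at most 0.52 CPM. The part of these cells in the *Prox1* level was not tested.

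*Creb3l3* (ENSMUSG00000035041) had the tightest groups of the 9 factors, with a coefficient of variation of 1.98% in WT and 3.48% in *Themis*-KO. It was at 252, 247 and 242 CPM in the WT livers and at 221, 211 and 207 CPM in the *Themis*-KO livers. The groups did not overlap and lay −0.21 apart in log2 CPM (SE 0.078, adjusted p = 0.113), with a 95% interval from 0.761-fold to 0.977-fold. With total counts alone it was −0.075 (adjusted p = 0.521). CREBH acts as a cleaved protein, which mRNA counts do not measure.

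Per length, in CPM per kilobase of annotated exons, the C/EBP genes were the most abundant. In WT livers the level was 240 ± 13.4 for *Cebpb*, 177 ± 7.26 for *Cebpa* and 81.9 ± 1.62 for *Creb3l3* (SD, n = 3), and these ranges did not overlap. *Foxa2* (16.1 ± 5.86), *Prox1* (16.1 ± 3.32), *Foxa3* (14.8 ± 1.03) and *Onecut1* (12.3 ± 6.07) followed on this scale with overlapping ranges, and *Foxa1* (8.93 ± 1.45) overlapped *Onecut1* but had all its WT values below those of *Prox1* and *Foxa3*. *Onecut2* was lowest at 4.61 ± 0.20, over an exon length of 16234 bases. In *Themis*-KO livers *Cebpb* (302 ± 19.5), *Cebpa* (145 ± 12.1) and *Creb3l3* (70.6 ± 2.46) led in the same order. *Foxa3* (18.4 ± 2.94) then lay above *Foxa2* (13.1 ± 1.58) and *Prox1* (12.8 ± 0.59), which overlapped each other, and *Foxa1* (8.12 ± 1.40), *Onecut1* (5.12 ± 2.25) and *Onecut2* (4.04 ± 0.30) were the lowest, each overlapping the next. On this scale *Cebpb* exceeded *Cebpa* in both groups. In WT this reversed the order of the CPM, since the exons of *Cebpb* are shorter (1504 against 2636 bases). In *Themis*-KO the CPM of *Cebpb* was already higher.

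Each factor was also set against 11 hepatocyte markers of the same liver. The geometric mean of the markers was 3146, 2606 and 2819 CPM in the WT livers and 2173, 2256 and 2105 CPM in the *Themis*-KO livers. These groups did not overlap, with a log2 difference of −0.39 (exact two-sided permutation test, p = 0.1). Of the 11 markers, *Hpd* (log2 fold change −1.32, adjusted p = 0.00936) and *Ass1* (−0.49, adjusted p = 0.0480) fell and 0 rose by edgeR. These were 18.2% of the markers, beside 9.11% of all genes. DESeq2 called 5 markers, where it called 15.1% of genes. *Ass1* kept its call among the leave-one-out fits only without *Themis*-KO replicate 3, and *Hpd* lost its call without *Themis*-KO replicate 1 (adjusted p = 0.0504). Relative to this mean, the log2 difference between the labels was above 0 for 8 factors and below 0 for *Onecut1*, with a median of 0.17. Among all 14457 tested genes detected in every liver, 87.1% lay above 0 by the same measure, with a median of 0.40, so the median of the factors was below that of genes in general. The groups did not overlap for 3 factors and for 56.6% of all these genes. Of the differences above 0, those of *Cebpb* (0.72) and *Foxa3* (0.69) were the largest, followed among those without overlap by *Onecut2* (0.20), each with the smallest p of the exact test (p = 0.1). For *Foxa1* (0.25), *Creb3l3* (0.17), *Foxa2* (0.15), *Cebpa* (0.10), *Prox1* (0.08) and *Onecut1* (−0.82) the groups overlapped, with exact p-values between 0.2 and 0.9. Without each liver in turn the difference was 0.61 to 0.78 for *Cebpb* and 0.60 to 0.78 for *Foxa3*. The difference of *Foxa2* was −0.11 without WT replicate 3, and that of *Prox1* was −0.016 without WT replicate 2. Since the markers differed between the labels themselves, this ratio describes unequal change of a factor and the markers.

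**Figure D4:**
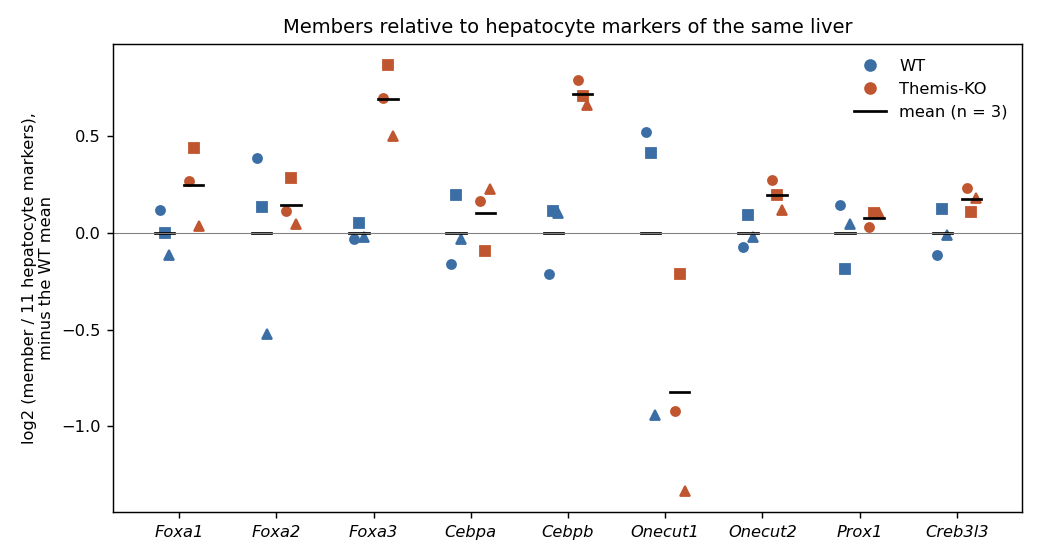
Log2 ratio of each factor's CPM to the geometric mean of 11 hepatocyte markers in the same liver, minus the WT mean, with WT in blue, *Themis*-KO in orange, marker shapes for replicates and a dash for the mean of 3 livers. All *Themis*-KO points of *Cebpb* and *Foxa3* lie above all WT points, and *Onecut1* spreads widely in both groups.

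Other factors of the hepatocyte network were taken from a list. Of 27 such factors tested, 4 fell and 0 rose by edgeR, 14.8% beside 9.11% of all genes, with a median log2 fold change of −0.30. *Tbx3*, a pericentral repressor, fell from 44.7 ± 5.45 to 29.9 ± 1.47 CPM (SD, n = 3; log2 fold change −0.58, SE 0.11, adjusted p = 0.0262). *Ppara*, the receptor that drives fatty acid oxidation, changed by −0.52 (SE 0.11, adjusted p = 0.0345), *Rxra*, its dimer partner, by −0.42 (SE 0.088, adjusted p = 0.0351), and *Nr0b2*, which encodes the bile acid-induced repressor SHP, by −0.73 (SE 0.17, adjusted p = 0.0397). *Hnf4a*, the central nuclear receptor of this network, was at 499, 421 and 429 CPM in WT and 462, 542 and 388 CPM in *Themis*-KO, with a difference of 0.045 on the log2 scale (SE 0.14, adjusted p = 0.842) that turned to −0.088 without *Themis*-KO replicate 2. All 4 calls were lost when replicate 1 or 2 of either label was left out and with the mitochondrial type as a covariate. Those of *Ppara*, *Rxra* and *Nr0b2* were also lost without WT replicate 3, and those of *Tbx3*, *Rxra* and *Nr0b2* with total counts alone. Without *Themis*-KO replicate 3, 15 of the factors were called.

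Among 14 tested relatives of the 9 factors, 2 rose and 0 fell, both of the C/EBP family, 14.3% beside 9.11% of all genes. *Cebpd*, an acute-phase C/EBP gene, was at 18.1, 19.4 and 23.4 CPM in WT and at 26.4, 30.9 and 30.9 CPM in *Themis*-KO (log2 fold change 0.53, SE 0.12, adjusted p = 0.0407). *Ddit3*, which encodes the stress-induced C/EBP partner CHOP, was at 7.71, 8.59 and 6.95 CPM in WT and at 12.1, 11.7 and 10.8 CPM in *Themis*-KO (log2 fold change 0.57, SE 0.13, adjusted p = 0.0388). Each *Themis*-KO liver lay above each WT liver in both genes. The groups did not overlap for 3 of the 14 relatives, beside 34.6% of all genes, so this separation does not set the relatives apart. Other C/EBP genes overlapped between the labels, with log2 fold changes of 0.34 for *Cebpg*, −0.24 for *Cebpe* and −0.034 for *Cebpz*. The median of the list was 0.041. Both calls were lost when replicate 1 or 2 of either label was left out and with the mitochondrial type as a covariate, that of *Ddit3* also without WT replicate 3, and 6 relatives were called without *Themis*-KO replicate 3.

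Known targets of the factors were described by their own lists. By edgeR 7.14% of the FOXA and HNF6 targets were called, 16.7% of those of C/EBPα, 14.3% of C/EBPβ and 7.69% of CREBH. Over all genes the share was 9.11%. Of 14 FOXA and HNF6 targets, *Igfbp1*, an insulin-repressed secreted binding protein, rose, from 37.8, 26.4 and 63.8 CPM in WT to 195, 188 and 66.2 CPM in *Themis*-KO (log2 fold change 1.81, SE 0.45, adjusted p = 0.0471), and 0 fell, with a list median of −0.27. *Themis*-KO replicate 3 was only just above the WT range for this gene. Of 12 C/EBPα targets, *Otc*, a urea cycle enzyme (log2 fold change −0.54, SE 0.089, adjusted p = 0.0223), and *Gys2*, the liver glycogen synthase (−0.41, SE 0.10, adjusted p = 0.0459), fell and 0 rose, with a list median of −0.39. Below 0 were 11 of these 12 genes, all 11 hepatocyte markers and 11 of the 14 FOXA and HNF6 targets, beside 7102 of 14496 genes tested. These 3 lists share genes, among them *Alb* and *Ttr*. Of 14 acute-phase targets of C/EBPβ, *Lcn2*, an iron-sequestering lipocalin, rose from 57.2 ± 8.87 to 148 ± 42.0 CPM (SD, n = 3; adjusted p = 0.0161) and *Orm2*, an orosomucoid, from 67.2 ± 2.91 to 105 ± 11.2 CPM (adjusted p = 0.0185), whereas 0 fell and the list median was −0.10. *Saa1*, *Saa2*, *Fga*, *Fgb* and *Fgg* of this list were highest in WT replicate 1, and their groups overlapped. *Orm1* and *Orm2*, like *Saa1* and *Saa2*, are near-identical genes between which reads may be divided, so their values are uncertain. Of 13 CREBH targets, *Cidec*, a lipid droplet protein, rose (log2 fold change 0.62, SE 0.11, adjusted p = 0.0249) and 0 fell. The list had 7 genes above 0, 6 below 0 and a median of 0.027. Just short of the threshold, *Apoa4*, an apolipoprotein, was at 0.64 and *Cpt1a* at −0.38, each with an adjusted p of 0.0605 and without overlap. No gene of these 4 lists was called without *Themis*-KO replicate 1, without WT replicate 1 or without WT replicate 2, nor with the mitochondrial type as a covariate.

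**Figure D5:**
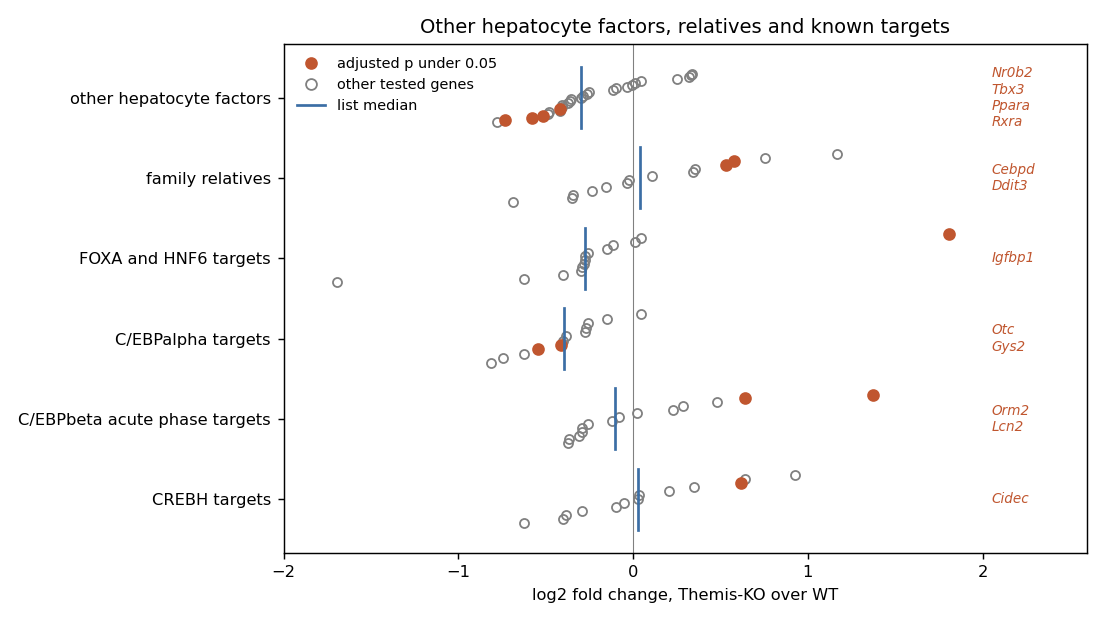
Log2 fold change, *Themis*-KO over WT, of the tested genes of 6 lists, with filled points for an adjusted p under 0.05 (names at the right), open points for the others and a line for the list median. The 4 called other hepatocyte factors and the 2 called C/EBPα targets lie below 0, and the called genes of the remaining lists lie above 0.

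Of all tested genes, those whose profile over the 6 livers was most like that of a factor were found by the root mean square difference of log2 CPM centred on its mean, a description with no test. *Cebpa* was closest to *Snx9* (0.024) and *Tmem184c* (0.024), *Cebpb* to *Utp15* (0.016) and *Apex1* (0.027), *Foxa3* to *Eef1e1* (0.027) and *Snhg8* (0.042), and *Creb3l3* to *Zfp58* (0.014) and *Tmem183a* (0.026). *Onecut2* was closest to *Irf3* (0.017) and *Imp3* (0.023), *Prox1* to *Slc35e1* (0.044) and *Hs3st3b1* (0.051), *Foxa1* to *Twnk* (0.045) and *Zfp874b* (0.056), and *Foxa2* to *E2f8* (0.11) and *Rslcan18* (0.12). *Onecut1* had no close match, with *Gm42796* (0.19) and *Col6a5* (0.32), both low in expression, as the nearest genes. Between the factors themselves, *Onecut2* and *Creb3l3* were the closest pair (0.050), followed by *Cebpa* and *Creb3l3* (0.089) and by *Foxa3* and *Cebpb* (0.13), and *Onecut1* was no closer than 0.59 to any of them. WT replicate 1 was the highest liver for 6 factors (*Foxa1*, *Foxa2*, *Onecut1*, *Onecut2*, *Prox1* and *Creb3l3*), and *Themis*-KO replicate 3 the lowest for 4 (*Foxa1*, *Onecut1*, *Onecut2* and *Creb3l3*).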

How the data were processed

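Libraries of liver poly(A) RNA from 3 mice labelled WT and 3 labelled *Themis*-KO were grouped by the sample labels. Per the submitters' processing notes, cutadapt 2.3, STAR 2.7.8a, RSEM 1.3.3 and GRCm38 were used; the authors deposited estimated counts per gene, whole numbers in the table and not normalized, and RSEM shares reads out between similar genes. The annotation release and the strand setting are not given in the sources used here. The labels do not say what same-numbered livers share. The study's text speaks of 3 pairs of livers but does not say which livers form a pair. Nothing in the labels beyond the liver number shows how the samples were taken. The p-values set the difference between the labels against the spread between these livers.

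The tests used edgeR 4.0.16 under R 4.3.3. Its filterByExpr kept 14496 of 25403 genes, libraries were scaled by TMM, and glmQLFit and glmQLFTest compared the labels without covariates, with Benjamini-Hochberg adjustment over the genes tested and a threshold of 0.05. SE and 95% intervals were derived from the F statistic, with 7.82 degrees of freedom, and CPM carry no prior count except in the likeness measure (2). The biological coefficient of variation was 0.157. Ratios were compared by exact two-sided permutation tests. On simulated counts for this comparison, with 14308 genes tested, edgeR recovered 68 of 100 genes changed by 1 and 93 of 100 changed by 1.5 on the log2 scale, with 10 false among 171 calls. These changes are larger than the estimates of all members except *Onecut1*. Smaller changes were not simulated, so the recovery of changes of the size seen in the other members is not known.

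The members and lists were chosen with earlier results of these data known. The genes named are the 9 members, the up to 6 genes of each list with the smallest adjusted p under 0.05, genes that a sentence on a member needs, the 2 genes most like each member, and *Themis*. The lists held relatives, other hepatocyte factors, targets of FOXA and HNF6, C/EBPα, C/EBPβ and CREBH, and markers of hepatocytes, cholangiocytes, lymphatic and other endothelium, macrophages, neutrophils, stellate cells and disease-associated hepatocytes; *Onecut3*, *Tf* and *Ly6g* were not matched in the table. Some listed genes are not reported here by name. Of 9 stellate cell markers 5 rose and 0 fell, and of 7 disease-associated hepatocyte genes, which the study names, 6 rose and 0 fell (in both lists 0 were called without WT replicate 1 or *Themis*-KO replicate 1, and in the latter also without WT replicate 2 or *Themis*-KO replicate 2), which is not independent evidence of their direction. The alternatives were RLE size factors, upper quartile scaling, total counts alone, no filter, a minimum of 10 counts per liver, DESeq2 1.42.0, a replicate block, each liver left out and, added after the data were seen, the mitochondrial type as a covariate. Promoter windows are from RefSeq (GRCm38.p6). Figures were drawn with matplotlib 3.10.9.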

Additional observations from a re-analysis of the deposited data

How the results depend on the processing

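No factor was called in either direction with RLE size factors, upper quartile scaling, at least 10 counts in every liver, the replicate block or the mitochondrial type as a covariate. Of the 9 factors, 1 was lower without a filter and 1 lower and 1 higher by DESeq2, and 1 was higher with total counts alone. Leaving out a liver gave 0 to 1 lower and 0 to 2 higher. *Foxa1* turned to 0.0087 (log2) with total counts alone, 0.0064 with the mitochondrial type and 0.0043 without WT replicate 1, and *Foxa2* to 0.30 and 0.0078 in the last 2 of these. With each liver left out in turn *Foxa1* ranged from −0.27 to 0.0043, *Foxa2* from −0.53 to 0.0078 and *Hnf4a* from −0.088 to 0.14, with −0.0026 without WT replicate 2. The *Foxa1* to *Foxa2* ratio, 0.10, ranged from −0.035 without WT replicate 1 to 0.30. Relative to the markers *Foxa2* ranged from −0.11 without WT replicate 3 to 0.34, and *Prox1* from −0.016 without WT replicate 2 to 0.15. The cause of these shifts was not tested. No other ratio and no other factor set against the markers changed sign under the alternatives run.

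Calls among listed genes moved more. With the replicate block or the mitochondrial type 0 were called in each of the 6 lists, from 2 relatives, 4 other factors, 1 FOXA and HNF6 target, 2 C/EBPα targets, 2 C/EBPβ targets and 1 CREBH target. Leaving out a liver gave 0 to 6 relatives, 0 to 15 other factors, 0 to 6 FOXA and HNF6 targets, 0 to 5 C/EBPα targets, 0 to 2 C/EBPβ targets and 0 to 5 CREBH targets, and *Themis*-KO replicate 3 gave the highest of these counts when left out. DESeq2 called 4 FOXA and HNF6, 6 C/EBPα and 7 CREBH targets, and no filter gave 2, 5 and 4. Total counts alone gave 2 other factors, 1 C/EBPα target, 4 C/EBPβ targets and 3 CREBH targets, and upper quartile scaling 1 C/EBPα target. Of the marker lists, the mitochondrial type left 0 calls among hepatocyte, cholangiocyte, macrophage, lymphatic and stellate cell markers and disease-associated genes, and the block left 1 hepatocyte and 1 stellate cell marker and 0 in the others of these.

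Over all genes, 1321 calls became 2279 with DESeq2, 2179 without a filter, 62 with the replicate block, 3 with the mitochondrial type and 20 to 4267 with a liver left out, and the share of higher calls, 54.6%, was 78.9% with total counts alone, 27.4% with the block and 0% with the mitochondrial type. Livers with the same number did not deviate together, with correlations of 0.00028, −0.24 and −0.16. Why the block gave fewer calls was not tested. With 3 livers per label no exact test can go below p = 0.1.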
